A study of Arabidopsis thaliana with 6 samples.

Results

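The report concerns 7 Arabidopsis thaliana genes of nucleotide metabolism, chosen by locus and by branch. They are the salvage genes UPP (AT3G53900) and HGPT (AT1G71750), the ureide breakdown genes ALN (AT4G04955) and UGLYAH (AT4G17050), and the synthesis genes IMPDH1 (AT1G79470), IMPDH2 (AT1G16350) and PYRB (AT3G20330). All 7 were measured, each by 1 probe set paired with that locus alone, among 13286 loci measured in this way. RNA was hybridised to Affymetrix ATH1 arrays, on which short oligonucleotides represent Arabidopsis transcripts. The RNA came from whole seedlings aged 10 days. One group was the wild type Col-0 and the other the mutant line rns2-2 in the Col-0 background, with 3 arrays each that the labels call biological replicates. Both groups were raised on MS agar at 21 °C with 16 hours of light a day, and the number of seedlings behind each array is not given in the labels.

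Plants make purine and pyrimidine nucleotides anew from amino acids and an activated ribose phosphate, and they recover them from free bases and nucleosides by salvage. Surplus purines are oxidised to the ureides allantoin and allantoate, whose stepwise hydrolysis returns the nitrogen as ammonium. The mutant is named for RNS2, an RNase T2 enzyme known for the turnover of ribosomal RNA, a process that releases nucleotides and nucleosides. No probe set was paired with RNS2 in the annotation used here, so its level was not analysed here. The comparison by branch asks whether transcripts of salvage, breakdown and synthesis differed between rns2-2 and Col-0.

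Of the 7 genes, 0 passed the limma test at an adjusted p of 0.05, beside 0.0044% of all 22746 probe sets tested. The 1 probe set that passed, 245067_at, is unnamed here. Its log2 signal was 10.28 to 10.62 in the Col-0 arrays and 5.06 to 5.17 in the rns2-2 arrays (log2 change -5.30, limma adjusted p = 0.000169). At an unadjusted p under 0.05, 1 of the 7 genes was counted, UPP, beside 10.7% of all probe sets. The log2 change, rns2-2 minus Col-0, was above 0 for 5 genes and below 0 for 2, and 42.8% of all probe sets lay above 0. The median was 0.33 for the 7 genes against -0.04 over all probe sets. This median was the value of PYRB, which depended on replicate 1 of Col-0. Without that array PYRB stood at -0.054, and with replicates 2 and 3 only at -0.093. For 2 of the 7 genes, UPP and UGLYAH, the genotypes did not overlap, beside 18.5% of all probe sets.

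**Figure D1:**
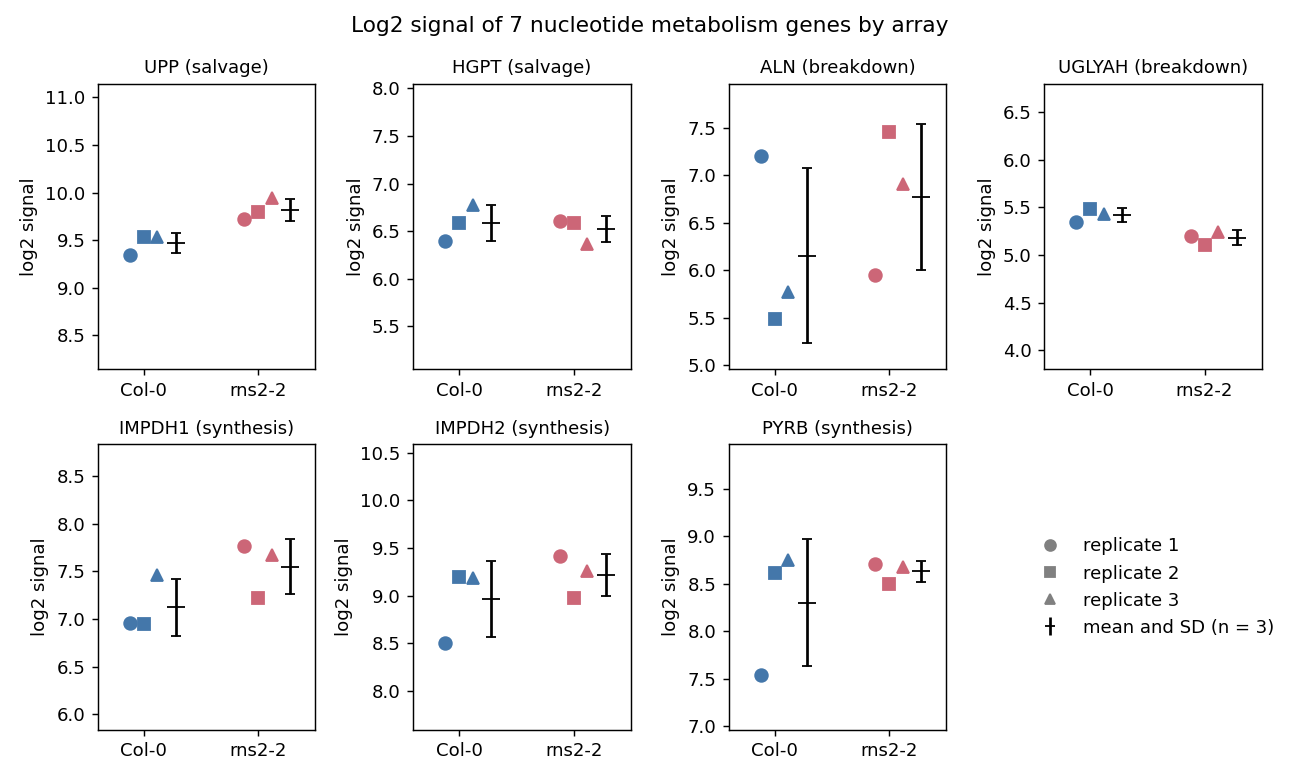
The log2 signal (y axis, arbitrary units on a log2 scale) of each of the 7 genes is plotted for the 3 Col-0 and 3 rns2-2 arrays, with the marker shape giving the replicate number and the bar the mean and SD (n = 3). Each panel spans the same log2 range; UPP lay higher and UGLYAH lower in every rns2-2 array, while ALN spread from 5.49 to 7.46 with no separation of the genotypes.

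The arrays did not stand at equal distances from each other, which touches every value that follows. Over probe sets, the log2 values of replicates 2 and 3 differed with an SD of 0.20 within Col-0 and of 0.31 within rns2-2. Replicate 1 differed from replicates 2 and 3 of its own genotype with SDs of 0.58 to 0.61. From the arrays of the other genotype, replicate 1 differed with SDs of 0.51 to 0.56 for Col-0 and of 0.54 to 0.58 for rns2-2. Each replicate 1 array was therefore no closer to its own genotype than to the other. Nothing in the labels says whether replicates 2 and 3 shared material, and if they did, the p-values partly measure technical spread. In whole seedlings, less RNA per cell and fewer cells of a type cannot be told apart. Of the marker genes listed to check the material, 3 of 4 for roots were measured. Their mean log2 signal was 8.06 ± 0.27 in Col-0 and 8.24 ± 0.48 in rns2-2 (SD, n = 3). This mean was not even across arrays, with 7.76 in replicate 3 and 8.72 in replicate 1 of rns2-2. In the same order, AT1G12560 was 5.22 and 6.89, AT1G62980 5.48 and 6.46, and AT3G09260 12.58 and 12.83. For shoots, 0 of the 5 listed markers had a named probe set here.

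In the salvage branch, UPP was the gene with the smallest p of the 7. UPP encodes a uracil phosphoribosyltransferase, which turns uracil into UMP. Its log2 signal was 9.35, 9.53 and 9.53 in replicates 1 to 3 of Col-0, and 9.72, 9.80 and 9.95 in replicates 1 to 3 of rns2-2. All 3 rns2-2 arrays stood above all Col-0 arrays, a separation shared upward by 7.23% of all probe sets. The change was 1.27-fold (95% interval 1.05 to 1.54; log2 change 0.35, SE 0.11), with a limma p of 0.0207 before adjustment and 0.400 after. The difference was larger than the SD within either genotype (0.11 and 0.12), and it did not pass over the whole array.

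UPP kept a log2 change between 0.29 and 0.40 without single arrays, and it stood at 0.34 with replicates 2 and 3 only (limma adjusted p = 0.156). The RNA controls added before labelling moved in part with it. Their mean log2 signal was 5.99, 5.53 and 5.48 in the Col-0 arrays and 5.67, 6.28 and 6.47 in the rns2-2 arrays. Within rns2-2 the array order of these controls was that of UPP, and within Col-0 the array with the highest controls, replicate 1, had the lowest UPP. Their part in the UPP difference was not tested.

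HGPT encodes the hypoxanthine-guanine phosphoribosyltransferase, which recovers the purine bases hypoxanthine and guanine as IMP and GMP. Its log2 signal was 6.39, 6.58 and 6.77 in Col-0 against 6.60, 6.59 and 6.36 in rns2-2. The genotypes overlapped almost fully. The log2 change was -0.06 (SE 0.14, limma adjusted p = 0.870), and its 95% interval of -0.40 to 0.27 leaves room for changes of either sign up to about these sizes.

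The 2 salvage genes were set against each other within arrays. The log2 signal of UPP minus that of HGPT was 2.95, 2.95 and 2.76 in the Col-0 arrays and 3.11, 3.21 and 3.58 in the rns2-2 arrays. These within-array differences did not overlap between genotypes, and the change of UPP exceeded that of HGPT by 0.41 log2 units (0.27 without replicate 3 of rns2-2). The two-sided exact permutation p was 0.1, the smallest that 3 arrays against 3 allow, and 0.3 after adjustment over the 3 pairs of genes compared in this way.

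In the breakdown branch, ALN had the widest spread of the 7 genes. ALN encodes allantoinase, which opens the ring of allantoin to give allantoate. Its log2 signal was 7.21, 5.49 and 5.77 in Col-0 against 5.95, 7.46 and 6.91 in rns2-2. In each genotype replicate 1 lay apart from the other arrays, upward in Col-0 by 1.58 and downward in rns2-2 by 1.24 log2 units. The genotype means were 6.15 ± 0.92 and 6.77 ± 0.76 (SD, n = 3), a log2 change of 0.62 (SE 0.56, limma adjusted p = 0.684). The 95% interval ran from -0.75 to 1.99.

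The ALN value depended on single arrays in both directions. Leaving out replicate 2 of either genotype gave 0.28, and treating the mean of replicates 2 and 3 as 1 sample gave 0.15. Without replicate 1 of Col-0 the log2 change was 1.14 (limma adjusted p = 0.292), and without replicate 1 of rns2-2 it was 1.03 (limma adjusted p = 0.458). With array weights, which gave both replicate 1 arrays low weight, it was 1.33 (limma adjusted p = 0.112). With replicates 2 and 3 only it was 1.56, and ALN then passed (limma adjusted p = 0.00217), in a fit where 14.3% of all probe sets passed. The 3 arrays with the highest ALN, replicate 1 of Col-0 and replicates 2 and 3 of rns2-2, were also the 3 with the highest labelling controls (5.99, 6.28 and 6.47). The part of these controls in the ALN values was not tested.

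UGLYAH encodes the ureidoglycine aminohydrolase, which acts after allantoate and releases ammonium. Its log2 signal was 5.34, 5.48 and 5.43 in the Col-0 arrays and 5.20, 5.10 and 5.25 in the rns2-2 arrays. Every rns2-2 array stood below every Col-0 array, as for 11.2% of all probe sets in this direction. The log2 change was -0.24 (SE 0.10), with a limma p of 0.0514 before adjustment and 0.470 after. These levels lie below the array medians of 6.51 to 6.66, at the percentile 33.4 of mean signal, and no detection calls were used, so UGLYAH could not be set against background. Its log2 change ran from -0.28 to -0.20 without single arrays.

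ALN and UGLYAH, which act in the same route, pointed in different directions on the means. Within arrays, the log2 signal of ALN minus that of UGLYAH was 1.86, 0.0037 and 0.33 in Col-0 against 0.75, 2.36 and 1.66 in rns2-2. The genotypes overlapped, and the difference of 0.85 log2 units between the 2 changes had a two-sided exact permutation p of 0.3 (0.45 adjusted over the 3 pairs). This difference ran from 0.47 without replicate 2 of rns2-2 to 1.42 without replicate 1 of Col-0, and it was 1.84 with replicates 2 and 3 only.

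In the synthesis branch, the 3 genes had log2 changes above 0 with all 6 arrays, and for 2 of them the value rested on a single Col-0 array. IMPDH1 and IMPDH2 are names in common use for the loci of IMP dehydrogenase, the enzyme that directs IMP towards guanine nucleotides. The gene table used here lists both loci by identifier only. IMPDH1 had log2 signals of 6.95, 6.95 and 7.47 in the Col-0 arrays and 7.76, 7.22 and 7.67 in the rns2-2 arrays. The ranges overlapped, because replicate 3 of Col-0 exceeded replicate 2 of rns2-2. The log2 change was 0.43 (SE 0.21, 95% interval -0.09 to 0.95, limma adjusted p = 0.515), and it ran from 0.32 to 0.60 without single arrays.

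IMPDH2 had log2 signals of 8.50, 9.20 and 9.19 in Col-0 against 9.41, 8.98 and 9.26 in rns2-2. The lowest array was replicate 1 of Col-0 and the other 5 overlapped. The log2 change was 0.26 (SE 0.23, limma adjusted p = 0.679). Without replicate 1 of Col-0 it was 0.025, and with replicates 2 and 3 only it was -0.073.

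PYRB encodes aspartate transcarbamoylase, which commits carbamoyl phosphate to pyrimidine synthesis. Its log2 signal was 7.54, 8.61 and 8.75 in the Col-0 arrays and 8.70, 8.50 and 8.68 in the rns2-2 arrays. Replicate 1 of Col-0 lay 1.14 log2 units below the mean of the other Col-0 arrays, while the remaining 5 arrays lay between 8.50 and 8.75. The log2 change of 0.33 (SE 0.32, limma adjusted p = 0.708) became -0.054 when replicate 1 of Col-0 was left out and -0.093 with replicates 2 and 3 only.

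The pair of IMP dehydrogenase genes was compared within arrays. The log2 signal of IMPDH1 minus that of IMPDH2 was -1.55, -2.25 and -1.72 in Col-0 against -1.65, -1.76 and -1.59 in rns2-2. The 2 changes differed by 0.17 log2 units, within the spread of the Col-0 arrays (SD 0.37), and the two-sided exact permutation p was 0.7 (0.7 adjusted over the 3 pairs). Over the 6 arrays, IMPDH2 and PYRB had a Pearson r of 0.944 as a description, and both were lowest in replicate 1 of Col-0. The 6 arrays share the close pairs of replicates 2 and 3, so this value describes these arrays only.

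**Figure D2:**
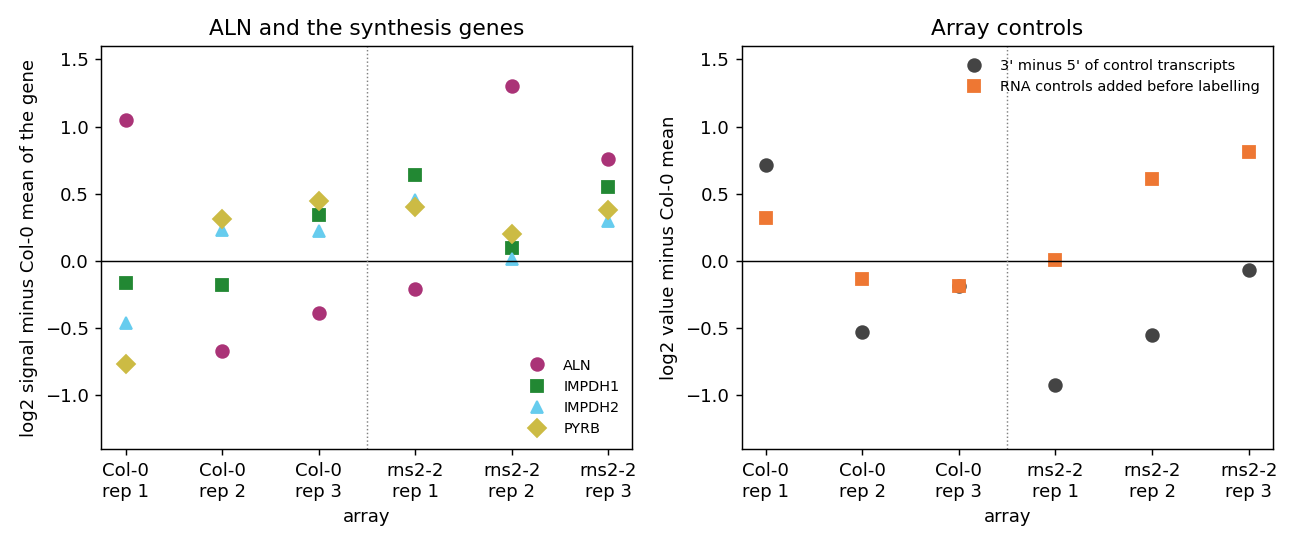
Left, the log2 signal of ALN, IMPDH1, IMPDH2 and PYRB in each array minus the gene's Col-0 mean; right, 2 array controls on the same scale, the excess of 3' over 5' probe sets (named 3' minus 5') and the RNA controls added before labelling. In replicate 1 of Col-0 ALN lay at 1.05 and PYRB at -0.76, and the excess of 3' over 5' was the highest of the 6 arrays.

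In replicate 1 of Col-0, the synthesis genes IMPDH2 and PYRB were low and the breakdown gene ALN was high. Relative to the gene's Col-0 mean, IMPDH1, IMPDH2 and PYRB stood at -0.17, -0.46 and -0.76 in that array, and ALN at 1.05. IMPDH1 was as low in replicate 2 of Col-0 (-0.18). The other breakdown gene, UGLYAH, did not share the high value of ALN and stood at -0.08 in replicate 1 of Col-0. A sign of RNA quality also stood apart there. For the actin, GAPDH and ubiquitin control transcripts, the 3' probe sets exceeded the 5' ones by 2.43, 1.19 and 1.53 log2 units in the Col-0 arrays and by 0.79, 1.17 and 1.65 in the rns2-2 arrays. The highest excess fell in the array with the lowest IMPDH2 and PYRB, and the lowest in replicate 1 of rns2-2, the array with the highest IMPDH1 and IMPDH2. The other arrays did not keep this order. Replicate 3 of rns2-2 had the next highest excess (1.65), with IMPDH1 (7.67) and IMPDH2 (9.26) above every Col-0 array. The part of RNA quality in these values was not tested.

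By branch, the mean over the genes was taken in each array relative to each gene's Col-0 mean, as a description without a test. The salvage mean was -0.156, 0.031 and 0.125 in the Col-0 arrays and 0.135, 0.166 and 0.128 in the rns2-2 arrays. Its groups did not overlap, by a margin far smaller than the spread of the Col-0 arrays, and of its 2 genes UPP had a mean above and HGPT a mean slightly below that of Col-0. The breakdown mean was 0.49, -0.30 and -0.19 in the Col-0 arrays and -0.21, 0.49 and 0.29 in the rns2-2 arrays, following ALN. The synthesis mean was -0.46, 0.12 and 0.34 in Col-0 against 0.50, 0.10 and 0.41 in rns2-2. Both overlapped between genotypes. No test between branches was made.

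**Figure D3:**
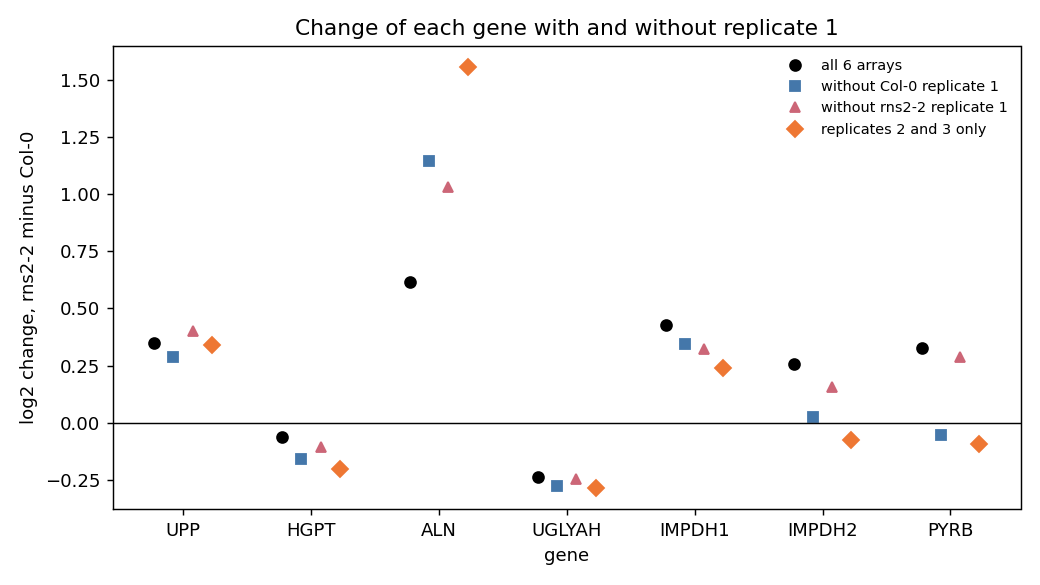
The log2 change, rns2-2 minus Col-0 (y axis), of each of the 7 genes is shown with all 6 arrays, without replicate 1 of either genotype and with replicates 2 and 3 only. UPP and UGLYAH stayed within 0.29 to 0.40 and -0.29 to -0.24 in these 4 fits, ALN moved from 0.62 to 1.56, and IMPDH2 and PYRB changed sign.

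The other genes of the pathways were taken from 9 lists of loci, put together from general knowledge, that hold 93 loci besides the 7 genes. Of these, 17 had a single-locus probe set, and 13 of the 17 are known to the gene table by identifier only and are given so. None of the 17 passed the limma test over all probe sets, and 4 had an unadjusted p under 0.05 with limma, 2 higher and 2 lower in rns2-2 (5.35% and 5.31% of all probe sets). The log2 change was above 0 for 9 and below 0 for 8 (42.8% of all probe sets lay above 0), with a median of 0.044 for the 17. The genotypes did not overlap for 5 of the 17, beside 18.5% of all probe sets.

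**Figure D4:**
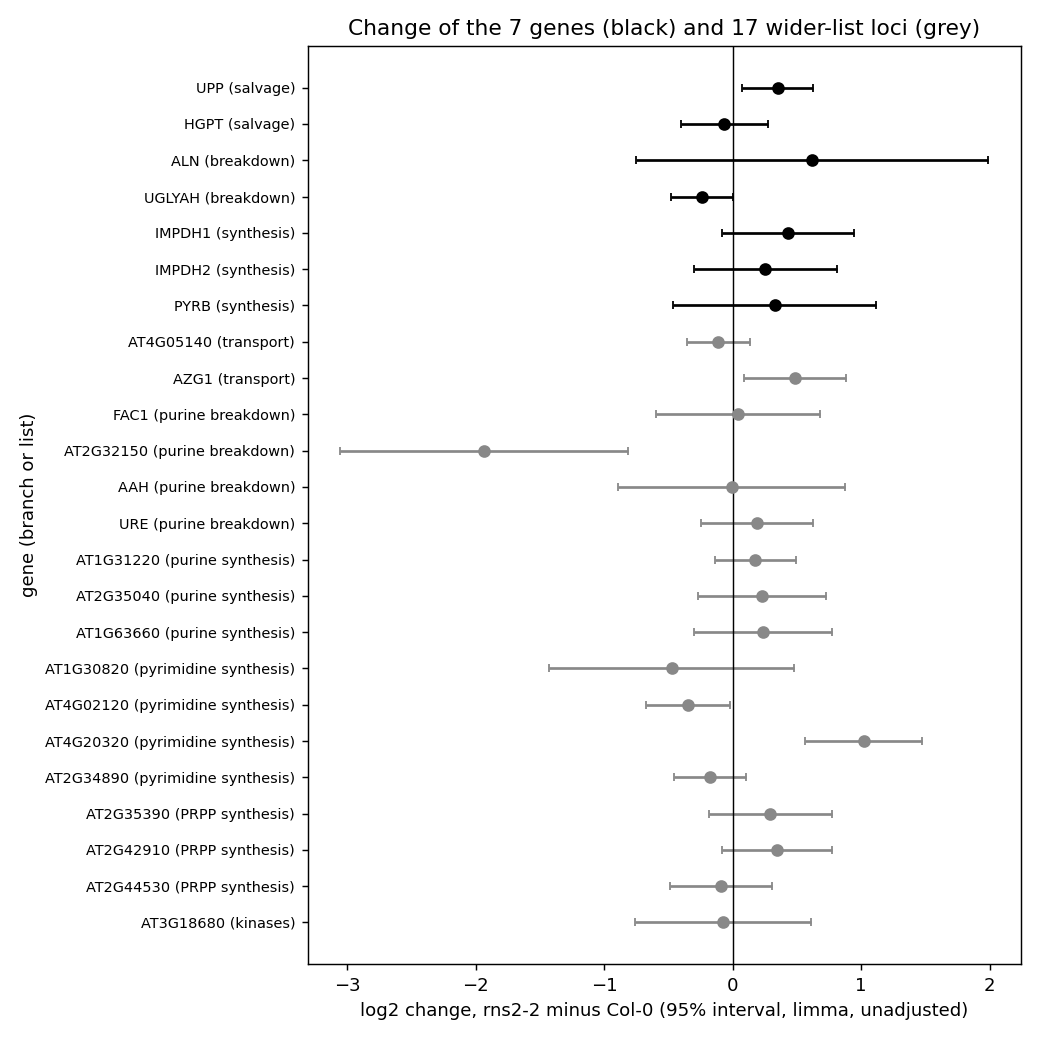
The log2 change, rns2-2 minus Col-0 (x axis), with its unadjusted 95% interval from limma is given for the 7 genes (black) and the 17 other measured loci of the nucleotide lists (grey; PRPP is the activated ribose phosphate). The intervals of AT4G20320 and AT2G32150 lay farthest from 0, on opposite sides, and none of the 24 loci passed the adjusted test.

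In the list of pyrimidine synthesis, 4 loci were measured besides PYRB. AT4G20320 had log2 signals of 5.79, 5.46 and 5.66 in the Col-0 arrays and 6.33, 6.68 and 6.96 in the rns2-2 arrays. The groups did not overlap, as for 7.23% of all probe sets in this direction. The Col-0 signals lay below the array medians of 6.51 to 6.66 and were not set against background. AT4G20320 was 2.03-fold higher (95% interval 1.48 to 2.78; log2 change 1.02, SE 0.19, limma adjusted p = 0.281). It passed with array weights (limma adjusted p = 0.0448), where 1.91% of all probe sets passed. It also passed with replicates 2 and 3 only (limma adjusted p = 0.00185), a fit where 14.3% of all probe sets passed. AT4G02120 lay in the other direction, with 8.22, 7.99 and 8.13 in Col-0 against 7.94, 7.57 and 7.79 in rns2-2 (log2 change -0.35, SE 0.13, limma adjusted p = 0.449). AT1G30820 had 9.70, 11.14 and 11.03 in the Col-0 arrays and 10.06, 10.05 and 10.34 in the rns2-2 arrays. Its lowest array was replicate 1 of Col-0, and its log2 change of -0.47 (SE 0.39) was -0.94 without that array and -0.89 with replicates 2 and 3 only, where it passed (limma adjusted p = 0.00736). Leaving out replicate 2 or 3 of Col-0 gave -0.22 and -0.27. AT2G34890 was dim, with a log2 change of -0.18 (SE 0.11), or -0.093 without replicate 3 of Col-0.

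In the list of purine synthesis, all 5 measured loci had log2 changes above 0, beside 42.8% of all probe sets. The changes ran from 0.17 to 0.43, and 0 passed. The 3 besides the IMP dehydrogenase genes were AT1G63660, AT2G35040 and AT1G31220, at 0.24 (SE 0.22), 0.23 (SE 0.20) and 0.17 (SE 0.13). AT2G35040 had 8.42, 9.03 and 9.01 in Col-0 against 9.24, 8.85 and 9.04 in rns2-2, so it too was lowest in replicate 1 of Col-0. With replicates 2 and 3 only, AT2G35040 and AT1G63660 stood at -0.076 and -0.039, and IMPDH2 also had a value below 0 there. AT1G31220 and IMPDH1 stayed above 0 in that fit, at 0.10 and 0.24. Of the loci listed for phosphoribosyl pyrophosphate synthesis, the supply of activated ribose phosphate, 3 of 5 were measured. The log2 change was 0.35 (SE 0.18) for AT2G42910, 0.29 (SE 0.20) for AT2G35390 and -0.09 (SE 0.16) for AT2G44530. That of AT2G42910 was 0.19 without replicate 1 of Col-0, and that of AT2G35390 was 0.087 without replicate 1 of rns2-2 and 0.026 with replicates 2 and 3 only.

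In the list of purine and ureide breakdown, 4 loci were measured besides ALN and UGLYAH. AT2G32150 had log2 signals of 11.98, 11.60 and 11.66 in the Col-0 arrays and 10.85, 9.63 and 8.97 in the rns2-2 arrays. All rns2-2 arrays stood lower, as for 11.2% of all probe sets, and spread over almost 2 log2 units. The log2 change was -1.93 (SE 0.46, limma adjusted p = 0.315). This locus passed with array weights (-2.13, limma adjusted p = 0.0448), where 1.91% of all probe sets passed. It also passed with replicates 2 and 3 only (-2.33, limma adjusted p = 0.000417), where 14.3% of all probe sets passed. AAH, the allantoate amidohydrolase that acts between ALN and UGLYAH, had 9.81, 8.76 and 8.43 in Col-0 against 9.02, 9.22 and 8.74 in rns2-2. Like ALN it was highest among the Col-0 arrays in replicate 1, by 1.21 log2 units over the mean of the others, and its log2 change was -0.01 (SE 0.36). FAC1, an AMP deaminase that feeds the purine route, had a log2 change of 0.044 (SE 0.26), and URE, the urease, 0.19 (SE 0.18), or 0.016 without replicate 3 of rns2-2 and 0.34 without replicate 1 of rns2-2.

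In the remaining lists few loci were measured. AZG1, a purine transporter, had log2 signals of 6.04, 6.07 and 6.04 in the Col-0 arrays and 6.21, 6.79 and 6.61 in the rns2-2 arrays. All rns2-2 arrays stood higher (log2 change 0.48, SE 0.16, limma adjusted p = 0.413), as for 7.23% of all probe sets. The Col-0 signals lay below the array medians of 6.51 to 6.66. AZG1 passed with replicates 2 and 3 only (0.64, limma adjusted p = 0.0196), where 14.3% of all probe sets passed. AT4G05140, in the same list of nucleosidases and transporters, had -0.11 (SE 0.10). AT3G18680, in the list of nucleotide kinases and deoxynucleotide supply, had -0.08 (SE 0.28). Apart from UPP and HGPT, 0 of the listed salvage loci and 0 of 4 listed for pyrimidine breakdown had a named probe set here.

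For the gene with the smallest p in each branch, the 3 loci with the most similar profile over the 6 arrays were sought by Pearson r. This value compares the shape of the profiles, not the level or the size of the change. The candidates were 4044 probe sets (4045 for UGLYAH) with a mean and an SD above the table medians. For UPP these were AT2G04280, AT5G23250 and AT1G09900 (r = 0.989, 0.980 and 0.977). For UGLYAH they were AT4G27390, CML38, a calmodulin-like gene, and AT3G04640 (r = 0.981, 0.979 and 0.978). For IMPDH1 they were HTB1, a histone H2B gene, AT4G29410 and AT1G07070 (r = 0.983, 0.975 and 0.971). The loci found for UGLYAH, itself at a log2 change of -0.24, changed by -0.49, -2.29 and -1.91. Those found for UPP, itself at 0.35, changed by 0.45 to 0.53. Those found for IMPDH1, itself at 0.43, changed by 0.32 to 0.49. With so many candidates and 6 arrays, an r above 0.95 was reached by 26, 12 and 14 probe sets for UPP, UGLYAH and IMPDH1, so the likeness is a description only.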

How the data were processed

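Each probe set had 1 deposited log2 signal per array. The submitters' processing notes name Affymetrix Expression Console as the authors' software. The log2 scale was read from the values (3.21 to 14.49). The algorithm and any normalization between arrays are not given in the sources used here. Of 22810 probe sets, 64 controls were left out, and the other 22746 entered a linear model (lmFit and eBayes of limma 3.58.1, R 4.3.3) of rns2-2 against Col-0, two-sided, with Benjamini-Hochberg adjustment over all of them and a threshold of 0.05. No filter or block was used. Arrays carry no read depth; their number limits the precision. Loci came from a platform table joined through Entrez identifiers to a RefSeq gene table (TAIR10.1), used only for names. All 24 probe sets described carry the plain _at suffix, which the maker gives to probe sets designed for a single transcript.

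Pairs of genes within a branch were compared by exact permutation over arrays. The named genes were the 7 members, up to 4 measured loci of each list by unadjusted p, and the 3 loci most like 1 member per branch. The members and lists were chosen with earlier results of these data known. Alternatives were quantile normalization, median centring, filters on dim probe sets, other variance priors, array weights, a replicate block and leaving out arrays. The fit was tested on simulated data with noise drawn independently for each array. There 50% of the probe sets changed 2-fold passed, and on average 4.39% of those that passed were false. The simulated arrays lacked the close pairs of replicates 2 and 3, so these shares need not hold for the real arrays.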

Additional observations from a re-analysis of the deposited data

How the results depend on the processing

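Among 109 alternative values of the 7 genes, 102 kept their direction and their side of the threshold. This count is no measure of stability. The filters on dim probe sets, the other variance priors and the replicate block left each log2 change as it was, so direction could not change there. The 7 genes also started far from the threshold (limma adjusted p 0.400 to 0.870). Of the 7, ALN alone passed in any of the alternative limma fits, with replicates 2 and 3 only (log2 change 1.56). Thus 1 of the 7 genes passed there, as 1 did at an unadjusted p under 0.05 (UPP). The sign changed for HGPT, IMPDH2 and PYRB, which stood at -0.06, 0.26 and 0.33 with all 6 arrays. HGPT was 0.0051 with replicates 2 and 3 averaged and ran from -0.16 to 0.032 without single arrays. IMPDH2 was -0.073 with replicates 2 and 3 only. PYRB ran from -0.054 to 0.55 without single arrays and was -0.093 with replicates 2 and 3 only. The difference between the changes of IMPDH1 and IMPDH2 ran from -0.031 to 0.32 without single arrays. Of the 17 other loci, 2 passed with array weights, 4 with replicates 2 and 3 only and 4 at an unadjusted p under 0.05. FAC1 stood at -0.0090 with median centring, -0.19 with array weights, -0.24 with replicates 2 and 3 only and -0.24 to 0.21 without single arrays. AAH stood at 0.22 with array weights, 0.39 with replicates 2 and 3 only and -0.29 to 0.40 without single arrays. Sign changes also came for AT2G35040 (-0.076) and AT1G63660 (-0.039) with replicates 2 and 3 only, AT2G44530 (-0.22 to 0.012 without single arrays) and AT3G18680 (0.019 with replicates 2 and 3 averaged, -0.37 to 0.071 without single arrays). Over all probe sets the count that passed was 1, and 435 with array weights, 3262 with replicates 2 and 3 only, 0 with these averaged, 2425 at an unadjusted p under 0.05, and 1 to 333 without single arrays (333 when replicate 1 of Col-0 was left out and 32 when that of rns2-2 was). The replicate block gave 1 probe set, 0 of the 7 genes and, for UPP, a limma adjusted p of 0.540. Deviations from the genotype means correlated between same-numbered arrays at 0.059, -0.062 and 0.14 (replicates 1, 2 and 3), so the numbers were not taken to pair the arrays. The averaging of replicates 2 and 3, and the gene pairs on replicates 2 and 3 only, were chosen after seeing the data. The cause of the shifts between settings was not tested. Another choice of probe set was not run, because each of the 24 loci had a single one. Dim levels such as that of UGLYAH could not be set against background.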
